A study of Mus musculus with 8 samples.

Results

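The dual-specificity phosphatases Dusp1, Dusp4, Dusp5 and Dusp6, the Sprouty genes Spry1, Spry2 and Spry4, the Sprouty relative Spred1, and the ETS transcription factors Etv4 and Etv5 were followed in PyMT-1099 cells, a mouse breast cancer cell line. These 10 genes were listed by name as feedback and output genes of the RAS-ERK pathway, with earlier results of these data known. They were looked up by symbol among 55450 gene identifiers, and all 10 were among the 14641 genes with enough counts to be tested. RNA was measured in 4 groups of 2 libraries: parental cells, untreated; parental cells given TGF-β (transforming growth factor beta) at 2 ng/ml for 10 days; AGPS knockout cells, untreated; and AGPS knockout cells given the same TGF-β course. Agps encodes alkylglycerone phosphate synthase, the peroxisomal enzyme that forms the ether bond of ether lipids. All groups are PyMT-1099 cells grown in the same serum-containing medium. The library names give the knockout only as AGPS KO, without naming a clone or pool. Whether replicate libraries are separate cultures is not stated in the labels. The p-values here reflect only how far libraries within groups differ, and that may be technical spread. This spread was estimated jointly over the 4 groups of 2 libraries, with information shared across genes.

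ERK (extracellular signal-regulated kinase) is the last kinase of a cascade that runs from growth factor receptors through RAS, RAF and MEK. Active ERK raises the transcription of its own inhibitors, which makes a negative feedback loop. DUSP proteins remove the activating phosphates from ERK and related kinases: DUSP5 acts on ERK in the nucleus, DUSP6 on ERK in the cytoplasm, and DUSP1 and DUSP4 on ERK, JNK and p38 in the nucleus. Sprouty and SPRED proteins act further upstream, between receptor and RAF. ETV4 and ETV5 are transcription factors whose genes are induced by FGF and ERK signalling, and they carry part of its output in branching epithelia such as the mammary gland. RNA levels of these genes are widely read as a sign of ERK activity, but ERK activity itself was not measured here, and TGF-β, stress and RNA decay also act on several of them.

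The libraries held between 17007268 and 21311831 counts. Levels are given as CPM, the count of a gene as a share of its library after TMM scaling. Agps was at 357 and 330 CPM in untreated parental cells and at 32.9 and 29.3 CPM in untreated knockout cells, and at 265 and 266 CPM against 43.9 and 35.6 CPM with TGF-β, so its RNA was lower in every library labelled knockout. Of 7 mammary epithelial markers, Krt8, Krt18, Krt19 and Cdh1 were at 52.3 CPM or more in every library, whereas Epcam had 0 counts in all 8. Krt5 and Krt14, markers of basal mammary cells, were low, at 0.25 to 5.45 and 0.19 to 11.1 CPM. The summed epithelial level was 5807 to 6401 CPM in untreated and 3130 to 3333 CPM in TGF-β-treated parental cells, and 4185 to 4509 against 3246 to 3457 CPM in knockout cells. The 5 immune markers summed to at most 0.42 CPM in any library, with Cd3e and Adgre1 at 0, and the 3 fibroblast markers to at most 3.64 CPM. The 4 endothelial markers summed to 76.5 CPM in both TGF-β-treated parental libraries and to at most 8.24 CPM elsewhere. Cdh5 carried that sum, at up to 75.6 CPM, while Pecam1, Kdr and Tek reached at most 0.95, 0.28 and 0.053 CPM. The part of these levels in the results below was not tested.

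In parental cells, TGF-β moved 8 of the 10 genes: 6 fell and 2 rose. Dusp6, Dusp1, Dusp5, Spry1, Spry2 and Spred1 fell, by 1.79-fold to 3.68-fold, and Dusp4 and Etv4 rose, by 1.95-fold and 2.38-fold. A change was called at a Benjamini-Hochberg adjusted p under 0.05 in edgeR's quasi-likelihood fit over all genes. At that threshold TGF-β moved 42.5% of all genes tested in parental cells, 21.2% lower and 21.3% higher, against 6 and 2 of the 10 here. The 10 were chosen with earlier results of these data known, so these shares are a description and not a test of the set. The median log2 fold change of the 10 was -0.85, beside 0.0080 for all genes. In knockout cells, 7 of the 10 were called, 5 lower and 2 higher, beside 41.4% of all genes (20.6% lower, 20.9% higher). Their median was -0.77, beside -0.00023 for all genes. In such bulk samples, fewer cells with high expression and less RNA per cell cannot be told apart.

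**Figure D1:**
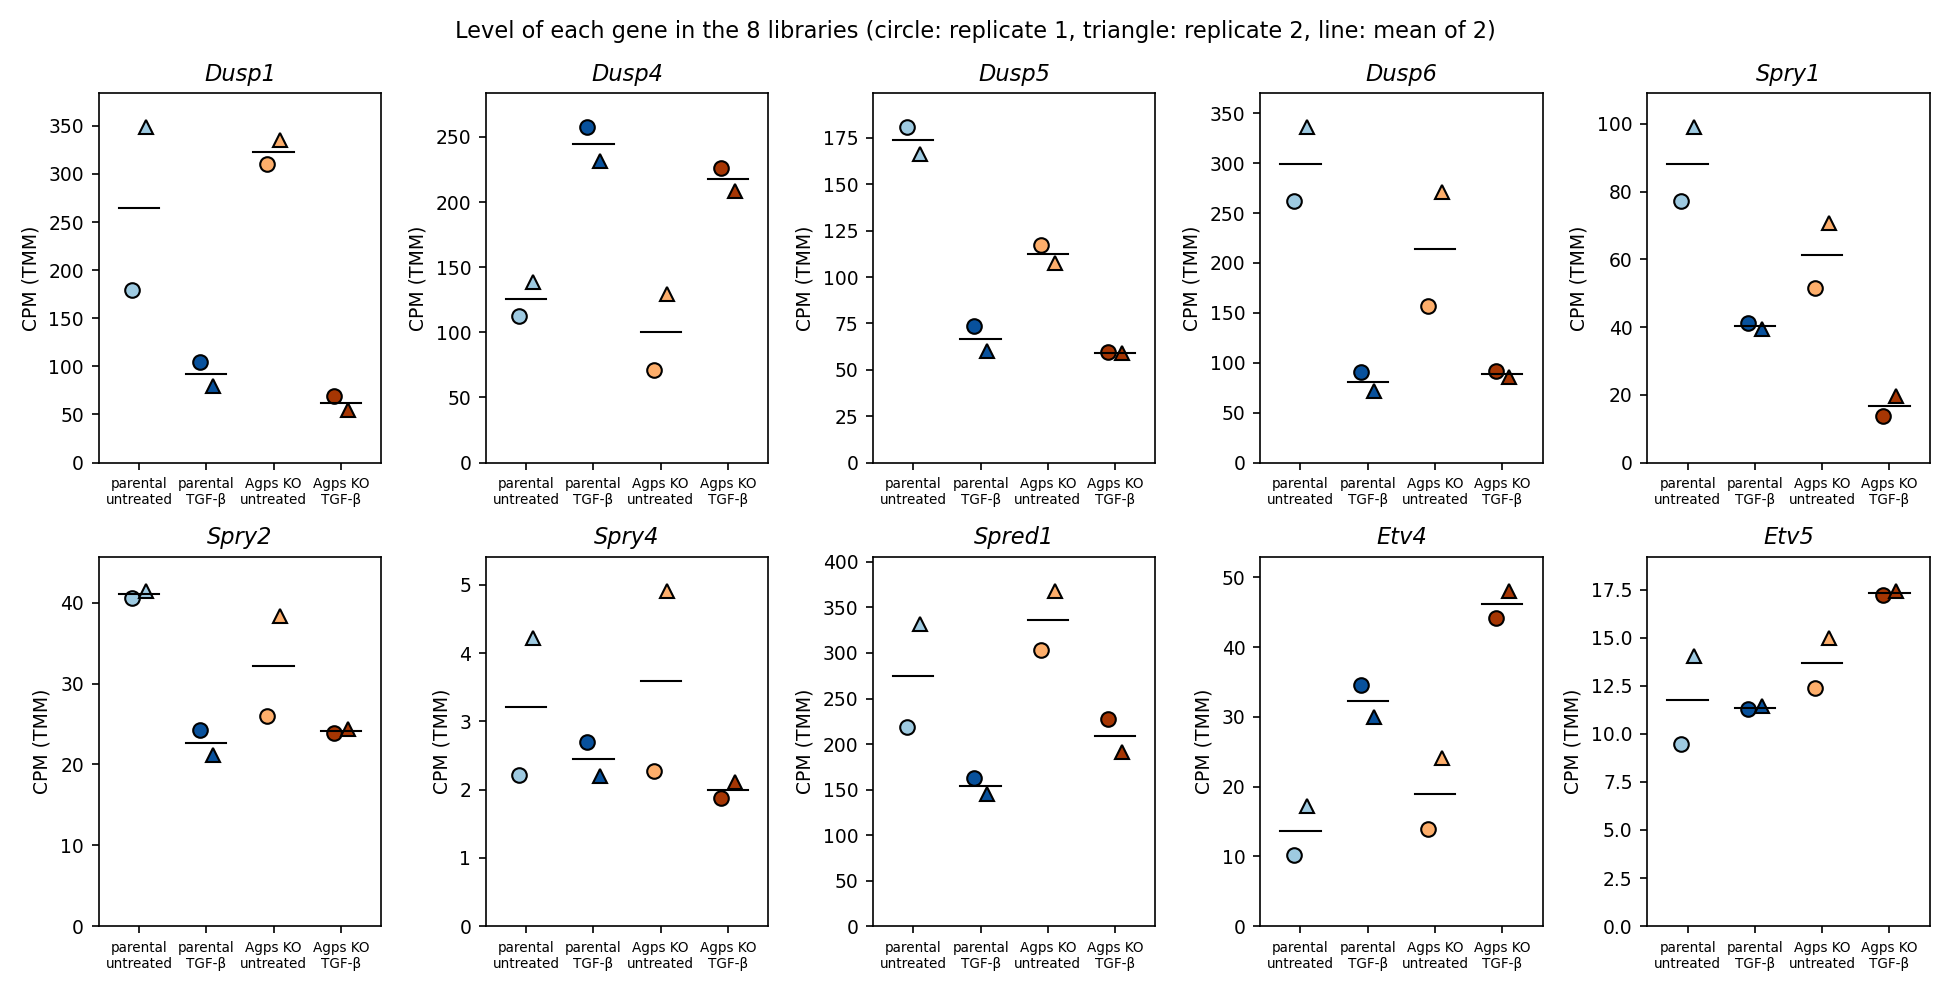
Level of each of the 10 genes in every library, in CPM on an axis that starts at 0 and has its own range for each gene. Circles are replicate 1, triangles replicate 2 and lines the mean of 2 libraries. Dusp1, Dusp5, Dusp6, Spry1, Spry2 and Spred1 sit lower in all TGF-β-treated libraries than in untreated libraries of the same line, and Dusp4 and Etv4 sit higher. The fall of Spry2 in knockout cells did not pass the test.

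Dusp6, whose product is the cytoplasmic ERK phosphatase, had the largest fall of the 10 in parental cells. It was at 263 and 336 CPM in the untreated parental libraries and at 90.8 and 71.6 CPM with TGF-β. The groups were far apart, and the log2 fold change was -1.88 (standard error 0.22, edgeR adjusted p = 3.36e-05). In knockout cells Dusp6 was at 156 and 271 CPM untreated and at 91.7 and 86.1 CPM with TGF-β. This fall was 1.26 on the log2 scale (standard error 0.22, edgeR adjusted p = 0.00060), and it rests in part on the second untreated library: without it, the estimate was -0.82 (edgeR adjusted p = 0.00103).

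Dusp5, which encodes the nuclear ERK phosphatase, had untreated libraries that lay close together in each line. Its levels were 181 and 166 CPM in untreated parental cells and 73.8 and 59.9 CPM with TGF-β. That is a fall of 1.38 on the log2 scale (standard error 0.11, edgeR adjusted p = 1.36e-06). In knockout cells it went from 117 and 108 CPM to 59.5 and 58.8 CPM, a fall of 0.93 (standard error 0.11, edgeR adjusted p = 3.20e-05). Over both lines, the treated libraries thus ranged from 58.8 to 73.8 CPM, closer together than the untreated ones, from 108 to 181 CPM. Dusp5 shares 22.1% of its exonic length with AC137853.2 on the opposite strand, and the strandedness of counting is not given in the sources used here, so reads of the pair cannot be told apart.

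Dusp1 encodes an immediate early phosphatase that acts on JNK and p38 as well as ERK. Its untreated parental libraries differed widely, at 179.8 and 349 CPM, while those with TGF-β held 105 and 79.7 CPM. The groups did not overlap, and the log2 fold change was -1.52 (standard error 0.25, edgeR adjusted p = 0.000435). Without the second untreated parental library the fall was 0.97 (edgeR adjusted p = 0.00028). In knockout cells Dusp1 was at 310.5 and 336 CPM untreated and at 68.9 and 55.1 CPM with TGF-β, the largest fall of the 10 genes in that line, at -2.38 (standard error 0.25, edgeR adjusted p = 1.50e-05).

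Dusp4 went the other way. This nuclear phosphatase gene was at 113 and 138 CPM in untreated parental cells and at 258 and 232 CPM with TGF-β. In knockout cells it was at 71.2 and 129 CPM untreated and at 226 and 209 CPM with TGF-β. Every treated library was above every untreated one. The log2 fold changes were 0.96 in parental cells (standard error 0.21, edgeR adjusted p = 0.00313) and 1.12 in knockout cells (standard error 0.21, edgeR adjusted p = 0.00117). The 4 phosphatases of the group therefore did not move as a block: the 2 ERK-selective ones and Dusp1 fell while Dusp4 rose.

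The bases upstream of Dusp1, Dusp5 and Dusp6, the 3 phosphatases that fell in both lines, are shown because their promoters differ in the short motifs they hold. RefSeq promoter windows (GRCm38.p6, 250 bases before to 50 after the start site) were matched by symbol for 7 of the 10 genes: Dusp1, Dusp5, Dusp6, Spry1, Spry2, Spred1 and Etv5, which has 2 windows. The 250 bases before the start site are printed 5′ to 3′ on the strand of the gene, with matches to any motif searched in capitals.
Dusp1, chr17:26508473-26508722, minus strand: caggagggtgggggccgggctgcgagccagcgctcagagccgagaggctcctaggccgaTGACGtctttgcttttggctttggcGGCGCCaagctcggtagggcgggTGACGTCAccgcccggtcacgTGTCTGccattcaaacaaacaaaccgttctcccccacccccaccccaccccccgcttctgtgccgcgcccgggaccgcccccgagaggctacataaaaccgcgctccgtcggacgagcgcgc
Dusp5, chr19:53528895-53529144, plus strand: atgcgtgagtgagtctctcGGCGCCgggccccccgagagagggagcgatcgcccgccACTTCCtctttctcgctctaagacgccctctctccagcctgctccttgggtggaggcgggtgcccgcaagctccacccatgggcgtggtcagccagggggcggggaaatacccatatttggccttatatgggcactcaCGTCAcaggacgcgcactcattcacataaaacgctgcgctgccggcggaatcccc
Dusp6, chr10:99262981-99263230, plus strand: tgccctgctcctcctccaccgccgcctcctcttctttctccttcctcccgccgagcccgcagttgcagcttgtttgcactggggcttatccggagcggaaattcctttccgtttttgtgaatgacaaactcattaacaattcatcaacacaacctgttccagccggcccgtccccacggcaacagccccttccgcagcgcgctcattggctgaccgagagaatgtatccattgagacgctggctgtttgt

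The motifs were searched on both strands of the 300-base windows. The cyclic AMP response element TGACGTCA, to which CREB proteins bind, was in the Dusp1 window and in none of the other windows searched. Of 32851 RefSeq windows, 1.79% hold it. Its shorter form TGACG, which lies within the full element, was in the windows of Dusp1 and Dusp5 (20.8% of all windows). The ETS motif GGAAGT was in those of Dusp5 and Etv5 (23.8%), and the longer ETS motif CCGGAAG in none (8.86%). The SMAD motif CAGACA was in the Dusp1 window (21%), and the GC-rich SMAD motif GGCGCC in those of Dusp1, Dusp5, Spred1 and Etv5 (11.9%). The AP-1 motif TGANTCA was in none (7.81%). The windows of Dusp6, Spry1 and Spry2 held no match to these letters. A match is a description of the sequence, and binding was not measured.

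**Figure D2:**
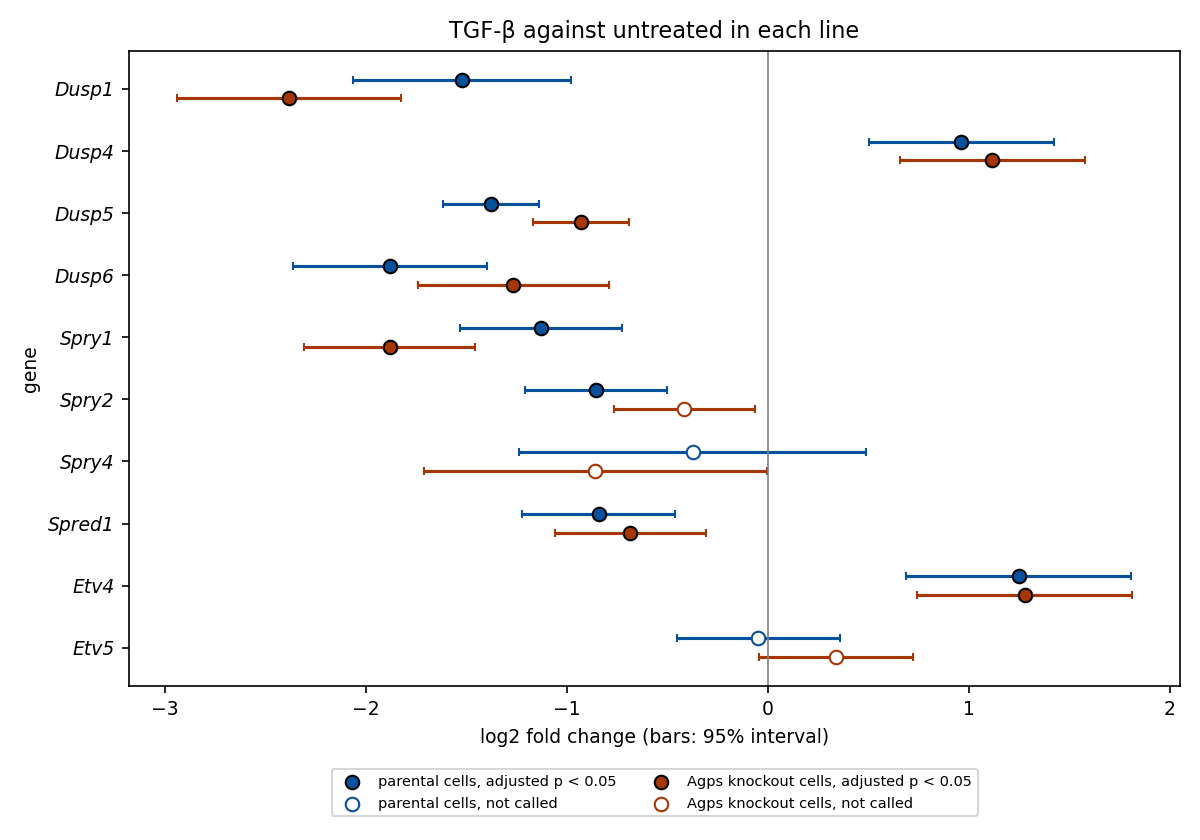
Log2 fold change with TGF-β for each of the 10 genes in parental and knockout cells, with 95% intervals from the edgeR fit over 8 libraries; filled points passed an adjusted p of 0.05. Dusp1, Dusp5, Dusp6, Spry1 and Spred1 lie below 0 in both lines, Dusp4 and Etv4 lie above 0 in both, and the intervals of Spry4 and Etv5 in parental cells span 0.

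Among the Sprouty genes, which encode inhibitors that act between receptor and RAF, Spry1 changed most. It was at 77.3 and 99.1 CPM in untreated parental cells and at 41.2 and 39.4 CPM with TGF-β, a fall of 1.13 on the log2 scale (standard error 0.18, edgeR adjusted p = 0.000435). In knockout cells it went from 51.6 and 70.9 CPM to 13.7 and 19.6 CPM, a fall of 1.88 (standard error 0.19, edgeR adjusted p = 1.11e-05). The TGF-β-treated knockout libraries were the lowest of all 8 for this gene. Gm42922 on the opposite strand covers 24.4% of the exonic length of Spry1, so the limit given for Dusp5 applies here too.

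Spry2 was at 40.6 and 41.5 CPM untreated and at 24.2 and 21.2 CPM with TGF-β (log2 fold change -0.85, standard error 0.16, edgeR adjusted p = 0.00124). In knockout cells its untreated libraries were at 26.0 and 38.4 CPM and its treated libraries at 23.9 and 24.4 CPM. These did not overlap, but the difference of -0.42 did not pass the test (standard error 0.16, edgeR adjusted p = 0.0578). The call turned on single libraries: the adjusted p was 0.00142 without the first untreated knockout library, 0.0478 without the first and 0.0491 without the second untreated parental library, and 0.611 at the other extreme.

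Spry4 was the lowest gene of the set, with 1.87 to 4.92 CPM over the 8 libraries. With TGF-β its log2 fold change was -0.37 in parental cells (95% interval -1.24 to 0.49, edgeR adjusted p = 0.485) and -0.86 in knockout cells (95% interval -1.71 to -0.0048, edgeR adjusted p = 0.101). Neither passed the test. In knockout cells the untreated libraries, at 2.27 and 4.92 CPM, were further apart from each other than the lower of them was from the treated ones, at 1.87 and 2.11 CPM, and without the first untreated library the estimate was -1.31 (edgeR adjusted p = 0.00887).

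Spred1, a Sprouty relative that brings neurofibromin to RAS at the membrane, was abundant in counts, at 219 and 331 CPM in untreated parental cells and 162 and 145 CPM with TGF-β. The fall was 0.84 on the log2 scale (standard error 0.17, edgeR adjusted p = 0.00218), and 0.52 without the second untreated parental library (edgeR adjusted p = 0.0115). In knockout cells it went from 303 and 369 CPM to 227 and 191 CPM, a fall of 0.68 (standard error 0.17, edgeR adjusted p = 0.00732). That call was lost without the second treated knockout library (-0.56, edgeR adjusted p = 0.0802).

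The paired transcription factor genes behaved differently from each other. Etv4 was at 10.2 and 17.2 CPM in untreated parental cells and at 34.6 and 30.0 CPM with TGF-β. In knockout cells it was at 14.0 and 24.0 CPM untreated and at 44.2 and 48.1 CPM with TGF-β. All treated libraries were above all untreated ones, with log2 fold changes of 1.25 (standard error 0.25, edgeR adjusted p = 0.00208) and 1.28 (standard error 0.24, edgeR adjusted p = 0.00127). Etv5 was at 9.49 and 14.1 CPM in untreated and at 11.3 and 11.4 CPM in TGF-β-treated parental cells, where the groups overlapped and the difference was -0.05 (95% interval -0.45 to 0.36, edgeR adjusted p = 0.868). In knockout cells Etv5 was at 12.4 and 15.0 CPM untreated and at 17.2 and 17.5 CPM with TGF-β, a difference of 0.34 that did not pass the test (95% interval -0.044 to 0.72, edgeR adjusted p = 0.147).

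In untreated cells 1 of the 10 was called in knockout against parental cells, beside 13.7% of all genes, with 8.94% lower and 4.72% higher. That gene was Dusp5, at 117 and 108 CPM in knockout against 181 and 166 CPM in parental cells (log2 fold change -0.63, standard error 0.11, edgeR adjusted p = 0.00246), and the groups did not overlap. Spry1 and Spry2 were also lower in both knockout libraries than in both parental ones, but the differences of -0.52 (edgeR adjusted p = 0.0796) and -0.35 (edgeR adjusted p = 0.185) did not pass the test. For the other 7 genes the libraries of the lines overlapped. The share of all genes without overlap was not computed, and with 2 libraries per group it is a weak criterion. The number called moved with single libraries, from 1 to 5 when each library was left out in turn, with 5 without the second untreated knockout library, 4 without the second untreated parental library, and 2 without the first of either. With both second untreated libraries removed it was 7.

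With TGF-β, 2 of the 10 differed between the lines, 1 lower and 1 higher in knockout cells, beside 17.9% of all genes (11.1% lower, 6.82% higher). Spry1 was lower in knockout cells, at 13.7 and 19.6 CPM against 41.2 and 39.4 CPM in parental cells (log2 fold change -1.28, standard error 0.20, edgeR adjusted p = 0.00107). Etv5 was higher, at 17.2 and 17.5 CPM against 11.3 and 11.4 CPM (log2 fold change 0.61, standard error 0.18, edgeR adjusted p = 0.0365). The Etv5 call was lost without any 1 of the 4 treated libraries, with adjusted p between 0.129 and 0.176, while that of Spry1 was kept with each library left out (adjusted p from 0.000129 to 0.0211). Etv4 (0.51, edgeR adjusted p = 0.171), Spred1 (0.45, edgeR adjusted p = 0.102) and Dusp1 (-0.57, edgeR adjusted p = 0.145) did not overlap between the treated lines but did not pass the test. The same held for Dusp4 (-0.17, edgeR adjusted p = 0.642), Dusp5 (-0.18, edgeR adjusted p = 0.313) and Spry4 (-0.31, edgeR adjusted p = 0.675). With 2 libraries per group, lack of overlap is weak evidence of a difference, and its share over all genes was not computed. Spred1 and Dusp1 passed the edgeR test when the first untreated parental library was left out (adjusted p = 0.0161 and 0.00868) or the second (0.0163 and 0.0092), which leaves 4 genes called.

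The chromosomes of 2 of the genes had medians of -0.27 or lower between the lines. Spry1 lies on chromosome 3 (GRCm38, 37639947 to 37644598, plus strand), where the median log2 difference of the other tested genes between knockout and parental cells was -0.27 untreated and -0.30 with TGF-β. The 20 tested genes nearest to Spry1 had medians of -0.08 and -0.23, against -0.52 and -1.28 for Spry1 itself. Dusp4 lies on chromosome 8 (34807297 to 34819894, plus strand), whose median was -0.46 untreated and -0.47 with TGF-β, with -0.39 and -0.27 for its 20 neighbours. Dusp4 itself stood at -0.32 and -0.17, neither of which passed the test (edgeR adjusted p = 0.372 and 0.642). The other genes lie on chromosomes with medians between -0.05 and 0.08, Dusp5 among them on chromosome 19 (53529109 to 53542431, plus strand; chromosome medians 0.06 and 0.08). The part of these chromosome-wide levels in the difference of Spry1 was not tested.

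**Figure D3:**
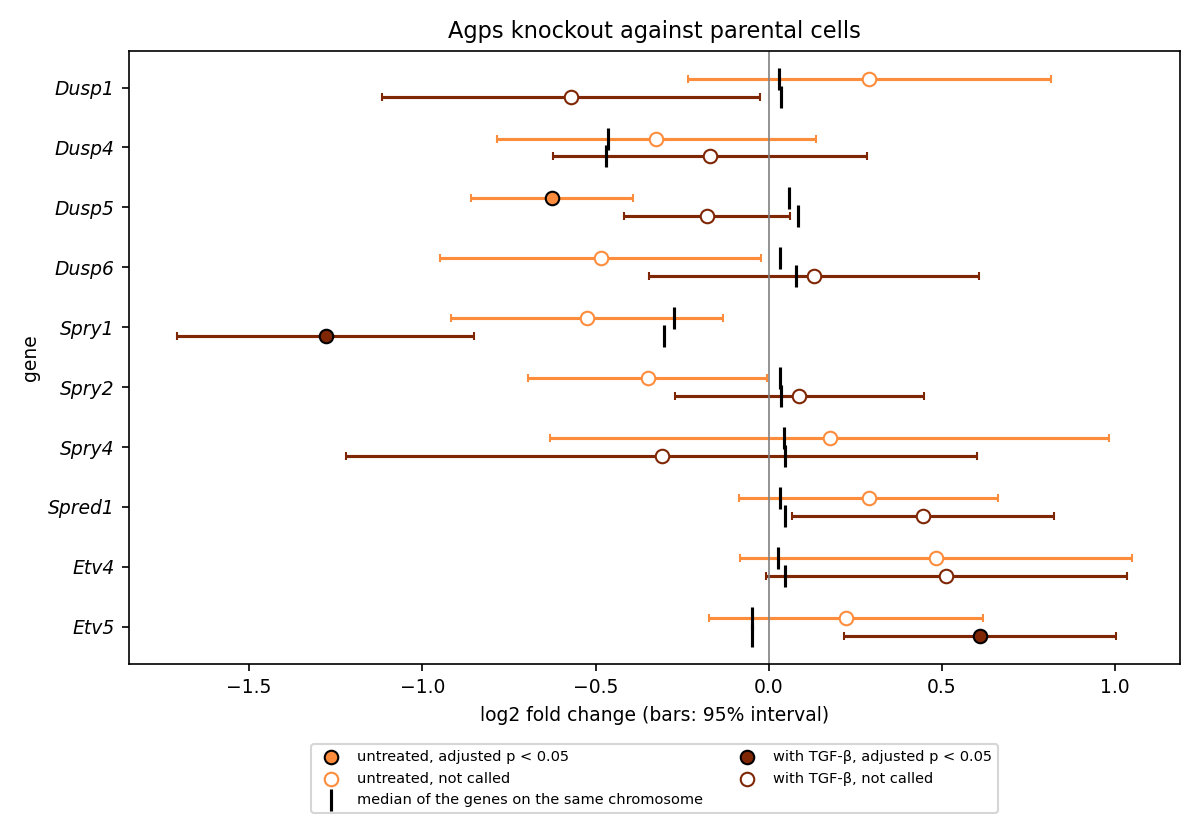
Log2 difference between knockout and parental cells for each of the 10 genes, untreated and with TGF-β, with 95% intervals from the edgeR fit, with a black tick at the median of the other tested genes on the same chromosome. Filled points passed an adjusted p of 0.05: Dusp5 untreated (-0.63), Spry1 with TGF-β (-1.28) and Etv5 with TGF-β (0.61).

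Whether the lines responded differently to TGF-β was tested as the difference of the 2 responses. None of the 10 genes passed, beside 2.40% of all genes (1.25% higher, 1.15% lower), and DESeq2 also called 0. The count was 3 without the filter on low counts, 1 with the replicate block and 3 with both second untreated libraries removed. At an unadjusted p under 0.05 there were 3: Dusp1 at -0.86 (95% interval -1.62 to -0.10, edgeR adjusted p = 0.281), Spry1 at -0.75 (95% interval -1.33 to -0.18, edgeR adjusted p = 0.204) and Dusp5 at 0.45 (95% interval 0.11 to 0.78, edgeR adjusted p = 0.190). Negative values mean a deeper fall in knockout cells. Etv4 had a difference of 0.03 (95% interval -0.74 to 0.80), so these data do not settle whether its rise was equal in the lines. Single untreated libraries changed the outcome: without the second parental one, Dusp1 passed at -1.41 (edgeR adjusted p = 0.00296), and without the second knockout one, Dusp6 passed at 1.07 (edgeR adjusted p = 0.0161) and Spry2 at 0.75 (edgeR adjusted p = 0.0459).

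Replicates of the untreated groups were not alike for these genes. In untreated parental cells the second library was above the first for 9 of the 10 genes, with a median log2 difference of 0.46, and in untreated knockout cells also for 9 of 10, with a median of 0.51. Among all tested genes the second library was higher for 49.7% and 50.8%. Dusp5 was the exception in both lines, at 0.92 times the first library in each. The largest ratios were 1.94 for Dusp1 in parental and 2.17 for Spry4 in knockout cells. With TGF-β the second library was higher for 1 of 10 genes in parental and for 5 of 10 in knockout cells. Of 32 other genes listed as ERK-induced, 10 were higher in the second untreated parental library and 28 in the second untreated knockout library. The labels give no culture date or batch, and the part of culture state in these differences was not tested.

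**Figure D4:**
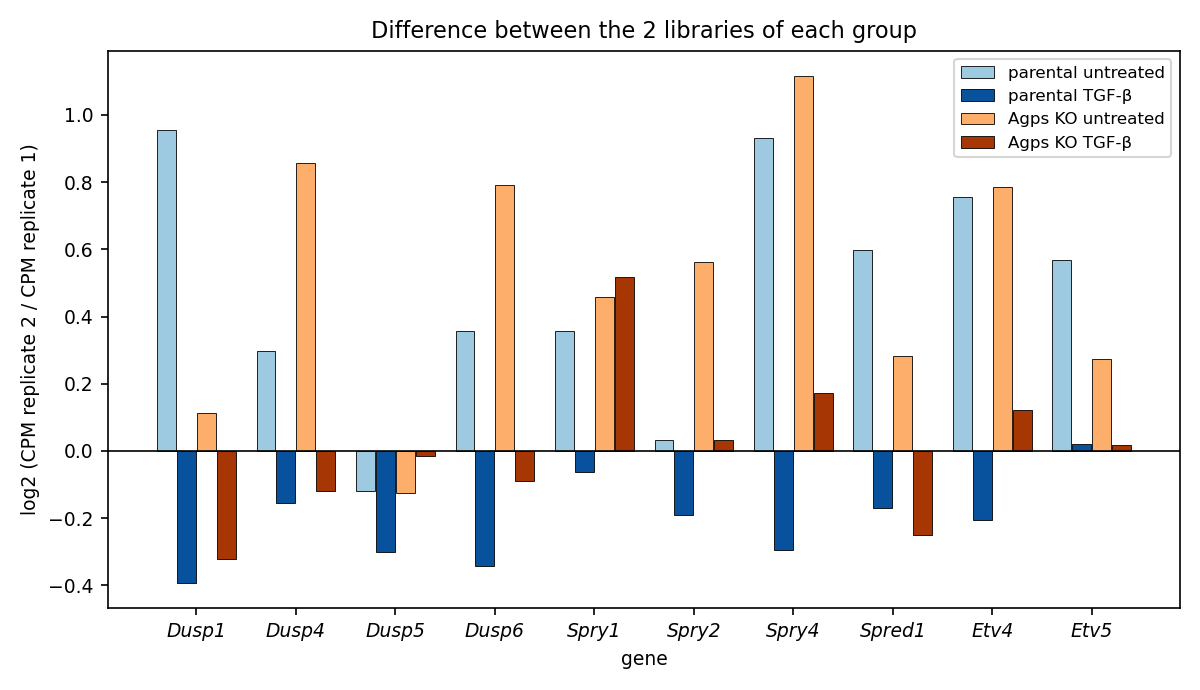
Log2 ratio of CPM in replicate 2 to CPM in replicate 1, as 1 bar per group for each of the 10 genes. In both untreated groups 9 of 10 bars lie above 0 (all but Dusp5), while in TGF-β-treated parental cells 9 of 10 lie below it.

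Levels per kilobase of exon (CPM per kb) give the order of the genes within a group. In untreated parental cells Dusp6 stood first at 95.6 ± 16.6 (SD, n = 2), followed by Dusp1 at 79.8 ± 36.1, Dusp5 at 70.2 ± 4.1, Dusp4 at 45.8 ± 6.7, Spred1 at 40.5 ± 11.7, Spry1 at 30.3 ± 5.3 and Spry2 at 19.7 ± 0.3. Etv4 (4.4 ± 1.6), Etv5 (2.9 ± 0.8) and Spry4 (0.68 ± 0.30) were far lower. Libraries of neighbours in this order overlapped for Dusp6 and Dusp1, Dusp1 and Dusp5, Dusp4 and Spred1, Spred1 and Spry1, and Etv4 and Etv5, so those orders are not set.

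With TGF-β the order was headed by Dusp4 in both lines, at 89.3 ± 6.7 CPM per kb in parental and 79.4 ± 4.6 in knockout cells. In each line it lay clear of the gene next to it. Dusp1, Dusp5, Dusp6 and Spred1 then stood close together in parental cells, from 27.8 ± 5.3 down to 22.6 ± 1.9, and their libraries overlapped from each to the next. In untreated knockout cells Dusp1 led at 97.6 ± 5.3, above Dusp6 at 68.2 ± 25.9. Etv4, at 14.9 ± 0.9, passed Spry2 (11.6 ± 0.2) and Spry1 (5.7 ± 1.4) in TGF-β-treated knockout cells, and Spry4 was last in all 4 groups.

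For each gene the tested gene with the most similar profile was taken as that with the smallest root mean square difference in centred log2 CPM over the 8 libraries, among 9326 genes of sufficient level. These distances are descriptions over libraries that fall into 4 groups. Dusp6 was closest to Insig1, a regulator of sterol synthesis (0.15), Dusp5 to the arrestin gene Arrb1 (0.12), and Dusp1 to the cyclin gene Ccnd2 (0.21). Dusp4 was closest to the host transcript Mir22hg (0.17). Spry1 was closest to the stress-induced cytokine gene Gdf15 (0.20), Spry2 to the kinase gene Pim3 (0.10), Spry4 to Cep72 (0.19) and Spred1 to Stard5 (0.11). Etv4 was closest to Tsku (0.16) and Etv5 to Soat1, a cholesterol acyltransferase gene (0.072). No gene of the set was the closest to another of the set, among those of sufficient level.

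Other genes of the pathway were taken from 5 lists, whose counts with TGF-β stand beside 42.5% of all genes called in parental and 41.4% in knockout cells. These lists too were chosen with earlier results of these data known. Of 10 tested MAPK phosphatase genes outside the set, 1 rose and 3 fell with TGF-β in parental cells (median log2 fold change -0.29), and 4 rose and 2 fell in knockout cells (median -0.07). Dusp7, whose product is a cytoplasmic ERK phosphatase and a relative of that of Dusp6, rose in both, by 1.04 (edgeR adjusted p = 0.000335) and 1.21 (edgeR adjusted p = 9.27e-05), against the falls of Dusp6. The knockout count of 6 was 3 without the first treated knockout library and 2 with DESeq2. Of 17 relatives and other feedback inhibitors, 9 rose and 3 fell in parental cells (median 0.33) and 9 rose and 2 fell in knockout cells (median 0.33). Spred2, the closest relative of Spred1, rose by 1.08 in parental cells (edgeR adjusted p = 1.12e-05; named after its value was seen) and by 0.97 in knockout cells (edgeR adjusted p = 2.13e-05), whereas Spred1 fell. Pea15a, which encodes a protein that keeps ERK in the cytoplasm, rose by 1.18 and 1.43, and the RAS GTPase activator gene Rasal2 rose by 1.21 and 1.08 (parental, then knockout). Errfi1, a feedback inhibitor of the EGF receptor, fell with log2 fold changes of -1.29 and -1.89, the direction of Spry1.

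Of 33 genes of the RAS-ERK cascade itself, 6 rose and 8 fell with TGF-β in parental cells and 9 rose and 5 fell in knockout cells, with medians of -0.02 and 0.03. The 14 of 33 in each line are near the share of all genes. Without the second treated parental library the parental count was 9 in place of 14. Elk3, an ETS factor phosphorylated by ERK, rose by 1.85 and 2.58, and Rps6ka1, which encodes the ERK-activated kinase RSK1, fell (-1.68 and -1.20). Of 32 genes outside the set listed as ERK-induced, 2 rose and 21 fell in parental cells (median -0.56). In knockout cells 6 rose and 14 fell (median -0.36). Whether ERK induces each of these genes in PyMT-1099 cells was not tested. Among the 32, Egr2, an immediate early transcription factor gene, fell in parental and knockout cells (-3.79 and -2.73). Zfp36, a gene of an mRNA decay factor, fell (-3.27 and -2.78), as did Btg2 (-2.50 and -2.74) and Ier2 (-2.37 and -1.53). The cytokine gene Lif rose by 1.78 in parental and 2.59 in knockout cells. Of 11 tested FGF and receptor genes, 2 rose and 7 fell in each line (medians -0.57 and -0.53), and Fgfr2, a receptor upstream of the Sprouty genes, fell (-1.95 and -2.84). Erbb3 (-3.36 and -2.75) and Fgf1 (-2.09 and -2.61) fell as well. Fgf2, with few counts, was among the 2 that rose in each line (1.59 and 4.27). The highest log2 fold change of this list was 7.76 in parental and 7.59 in knockout cells. These rises were larger than any fall in the list and belonged to no gene named here.

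In untreated knockout against parental cells, 16 of the 32 genes listed as ERK-induced were lower and 1 higher (median -0.56). Of all genes, 8.94% were lower and 4.72% higher, and of the 10 here 1 was lower. The number called of the 32 was 12 to 20 with each library left out in turn. The log2 difference was -1.24 for Ier2 (edgeR adjusted p = 0.000111), -0.97 for Ier3 (edgeR adjusted p = 0.000734) and -0.56 for Mcl1 (edgeR adjusted p = 0.00118). In the same comparison 4 of the 10 other phosphatase genes were lower, 3 of the 17 inhibitors were higher, 3 of the 33 cascade genes were higher and 7 lower, and 2 of the 11 FGF and receptor genes moved each way. These smaller counts depended on single libraries for the phosphatases (1 without the first untreated parental and 2 without the first untreated knockout library), the cascade (5 without the first and 6 without the second untreated parental library) and the receptors (2 without the second untreated knockout library). Dusp8 was lower (-0.73, edgeR adjusted p = 0.00412), and Nf1, the gene of neurofibromin, which acts with SPRED1 on RAS, was higher (0.71, edgeR adjusted p = 0.000368).

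With TGF-β, 4 of the 32 genes listed as ERK-induced were higher and 4 lower in knockout than in parental cells (median -0.13). Of all genes, 6.82% were higher and 11.1% lower. The count of 8 listed genes was not stable. It was 3 without the first treated parental library, 2 without the first and 4 without the second treated knockout library. It was 16 without the filter on low counts, and 14 on the libraries of the comparison alone or with either pair of untreated libraries removed.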

How the data were processed

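Libraries of poly(A) RNA (KAPA mRNA HyperPrep, per the labels' protocols) were aligned with STAR 2.7.1a to GRCm38 (mm10) and counted with featureCounts 1.6.2, per the submitters' processing notes. The deposited values are raw whole-number counts per gene, 1 file per library, for 55450 identifiers. For annotation release, strandedness and filters, nothing is given in the sources used here. A deposited normalized table was not used.

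The filterByExpr function of edgeR, at a minimum count of 10, left 14641 genes holding 99.9% of counts. Counts were scaled by TMM and fitted with edgeR 4.0.16 (R 4.3.3) as 4 group means over 8 libraries, with 4 residual degrees of freedom, and 5 contrasts were adjusted by Benjamini-Hochberg. Log2 fold changes come from this fit, and standard errors from its F statistic. Positions and exonic lengths are from GENCODE M21, which held all 55450 identifiers. The script was tested on simulated data. DESeq2 1.42.0, upper quartile and DESeq2 scaling, no filter, a replicate block, fits on the libraries of a comparison and leaving out each library were alternatives. Removing both untreated libraries of a replicate number was chosen after seeing the data.

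The 10 genes and all lists were chosen with earlier results of these data known. Named genes are the 10, Agps, up to 4 called genes of lowest adjusted p per list and contrast (mean log2 CPM of 1 or more), and the closest profiles (mean log2 CPM of 3 or more).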

Additional observations from a re-analysis of the deposited data

Results flagged for a closer look

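No gene of the 10 passed the test of a difference in TGF-β response between the lines, but Agps and 10 genes of the pathway lists did. Values are the response of knockout minus that of parental cells on the log2 scale (edgeR, Benjamini-Hochberg adjusted p). Fgfr2 differed by -0.90 (adjusted p = 0.00351) and was kept with every library left out. Fgf18 differed by -1.41 (0.0102), Egfr by -0.68 (0.0454), Ier3 by 1.00 (0.0221), Ier2 by 0.84 (0.0418), Elk3 by 0.73 (0.0374), Fosl1 by 1.35 (0.0264), Areg by 1.69 (0.0248), Fgf2 by 2.68 (0.0246) and Agps by 0.73 (0.0332). Each of these 9 after Fgfr2 lost its call without at least 1 treated library, where the adjusted p reached 0.0756 for Fgf18, 0.118 for Ier3, 0.0909 for Fgf2 and 0.145 for Agps. It reached 0.163 for Elk3, 0.181 for Ier2, 0.197 for Egfr, 0.148 for Areg and 0.142 for Fosl1. Fgf2 had 10 counts in each untreated knockout library, so its difference is imprecise (standard error 0.53). Fosl1 and Agps were called lower with TGF-β in parental cells (-0.63 and -0.37) and higher in knockout cells (0.72 and 0.36). Both parental calls depended on single libraries. Between the lines, Ier3, Ier2, Fosl1 and Egfr were called only in untreated cells, and Fgf18 and Fgf2 only with TGF-β. Fgfr2, Elk3, Areg and Agps were called in both. The remaining gene is Ksr2 of the cascade list, at 3.72, which lies under the level set for naming genes and is named after its value was seen.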

How the results depend on the processing

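With TGF-β against untreated, the number of the 10 genes called stayed within 8 to 9 in parental and 6 to 9 in knockout cells under every alternative run. The comparisons between lines were less settled. In untreated cells (1 gene called) the count was 5 without the filter, 2 with DESeq2, 2 with the replicate block, 7 with the second untreated libraries removed, and 1 to 5 with each library left out. With TGF-β (2 called) it was 5 without the filter, on the libraries of the comparison alone, and with either pair of untreated libraries removed, and 1 to 4 with each library left out. For the difference of responses (0 called) it was 3 without the filter, 1 with the replicate block, 3 with the second untreated libraries removed, and 0 to 2 with each left out. Over all genes, the untreated comparison gave 1111 calls in place of 2000 on its own 4 libraries. That with TGF-β gave 1188 to 2922 in place of 2618 with each library left out. The difference gave 855 in place of 352 without the filter, 679 with the replicate block, 531 with the second untreated libraries removed, and 120 to 421 with each left out. The cause was not tested.

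Of 790 recomputed values of the 10 genes, 704 kept their direction and side of the threshold, 60 gained a call, 5 lost it and 21 changed sign, none of the last for a called value. With the second untreated libraries removed, the TGF-β response in parental cells was 0.15 for Spry4 and 0.26 for Etv5, and the difference of responses of Spred1 was -0.024. With the first removed, the untreated line difference of Dusp1 was -0.060 and the difference of responses of Dusp4 was -0.065. With each library left out, the parental response ran from -0.78 to 0.15 for Spry4 and from -0.31 to 0.25 for Etv5. The untreated line difference ran from -0.11 to 0.84 for Dusp1, from -0.82 to 0.039 for Dusp4, from -0.49 to 0.70 for Spry4 and from -0.040 to 0.53 for Etv5. That with TGF-β ran from -0.029 to 0.31 for Dusp6 and from -0.0021 to 0.19 for Spry2. The difference of responses ran from -0.21 to 0.65 for Dusp4, from -1.01 to 0.18 for Spry4, from -0.17 to 0.43 for Spred1 and from -0.39 to 0.48 for Etv4.

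The labels number replicates 1 and 2 in every group without saying what a number shares. Deviations of same-numbered libraries correlated at 0.55 between untreated parental and untreated knockout cells. Over the other pairs of groups the correlations were 0.0038 to 0.26. This does not establish pairing, and the main fit held no term for the replicate number. With 2 libraries per group, precision is limited most for Spry4, at under 5 CPM.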
